A study of Homo sapiens with 12 samples.

Results

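The genes described here are the heat shock proteins of the cytosol and nucleus, their J-domain partners and the cytosolic chaperonin, as measured in cultured L-540 cells, an established human line of Hodgkin lymphoma. They were taken by gene symbol. The set holds all symbols that start with HSPA, HSPB, HSPD, HSPE, HSPH, HSP90A or DNAJ, the symbols CCT followed by a number, and TCP1, BAG3, HSF1, STIP1 and ZFAND2A, without the chaperones of the endoplasmic reticulum lumen. A probe also had to be detected on 3 or more of the 12 arrays, with 0.01 as the limit of the detection p. This left 72 of 127 probes and 55 of 83 genes, out of 11904 probes kept on the whole array.

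Cells were exposed for 24 h to 5 µM sorafenib, to both drugs, to 10 µM perifosine, or to no drug, and every group had 3 arrays with the letters A, B and C. The combination used the same doses as the single drugs. Sorafenib inhibits several kinases, and perifosine, an alkylphospholipid, acts on membranes and holds back AKT. L-540 is 1 cell line, and no label tells whether A, B and C were grown separately. The p-values therefore cover the spread between these arrays alone, part of which may be technical. Samples from animals, which the title mentions, were not analysed here.

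Heat shock proteins bind unfolded stretches of other proteins and hold them until they fold. HSP70 proteins bind and release their clients in a cycle that J-domain proteins start, STIP1 passes clients from HSP70 to HSP90, and the chaperonin encloses actins, tubulins and other proteins in a ring of subunits. Under heat or other protein damage the transcription factor HSF1 binds heat shock elements in promoters and raises many of these genes together.

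The label is only partly met by the members. Besides cytosolic proteins the symbols take in the mitochondrial chaperones HSPA9, HSPD1, HSPE1 and DNAJA3, several J-domain proteins of membranes and mitochondria, and CCT6P1, a pseudogene of the chaperonin subunit CCT6A. HSPBAP1 and HSPBP1 share the letters of the small heat shock proteins without being such proteins, which leaves HSPB1 as the measured small heat shock protein. Of the 28 genes with no kept probe, 22 had no probe detected on any array and 6 had one detected on 1 or 2 arrays. Among them were HSPA1A, the twin of HSPA1B, HSPA4, HSPA2, HSPB8, DNAJB4 and the chaperonin subunit gene CCT5. These genes have no value here.

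The arrays detected between 9291 and 11657 probes, and between 56 and 69 of the 72 member probes. Combination array B stood apart, with the fewest detected probes, the highest median intensity (648.7, against 404.3 to 579.3 on the other 11 arrays) and the lowest array weight in limma (0.282, against 0.685 to 1.60). Values for the combination are therefore also given without it where they move by over 1.5 times. Of 8 markers typical of Hodgkin lines, 6 were detected on all 3 control arrays, among them TNFRSF8, which encodes CD30, and 2 on none (IRF4 and CCL17). Of the B cell markers, BLK was on all 3 control arrays, and CD79A, CD79B, MS4A1 and PAX5 were on none. Of 8 T and NK cell markers, CD2, CD247, NKG7 and GZMB were on all 3 and the other 4, CD3D and CD3E among them, on none. Of 6 monocyte and macrophage markers CSF1R was on all 3, and of 4 fibroblast markers none was on all 3.

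Few members passed the test, and the sequences upstream of those that did are shown first. ZFAND2A, STIP1 and DNAJA3 passed in a comparison with control, and HSPA1B passed for sorafenib with the letter as a block. With the block on all 12 arrays DNAJB2, HSPH1 and a probe of TCP1 also passed for the combination. The letters were not taken as pairs there, and the sequences of these genes are not shown. HSPA1B was added to the sequences after its values were seen. The windows run from 250 bases before the gene start to 50 bases after it, from RefSeq on GRCh38.p14, and each is printed 5′ to 3′ along the strand of the gene. The heat shock element was searched on both strands as GAANNTTC and TTCNNGAA, and a match is in capitals. ZFAND2A lies on the minus strand at chr7:1160147-1160446, HSPA1B on the plus strand at chr6:31827488-31827787, STIP1 on the plus strand at chr11:64185022-64185321 and DNAJA3 on the plus strand at chr16:4425618-4425917.
ZFAND2A: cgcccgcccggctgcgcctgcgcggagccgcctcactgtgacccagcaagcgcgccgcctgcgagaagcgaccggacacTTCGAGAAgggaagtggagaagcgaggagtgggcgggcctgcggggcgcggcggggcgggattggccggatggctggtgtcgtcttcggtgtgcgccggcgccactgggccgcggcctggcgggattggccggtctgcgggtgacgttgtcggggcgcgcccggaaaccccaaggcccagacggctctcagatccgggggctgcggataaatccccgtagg
HSPA1B: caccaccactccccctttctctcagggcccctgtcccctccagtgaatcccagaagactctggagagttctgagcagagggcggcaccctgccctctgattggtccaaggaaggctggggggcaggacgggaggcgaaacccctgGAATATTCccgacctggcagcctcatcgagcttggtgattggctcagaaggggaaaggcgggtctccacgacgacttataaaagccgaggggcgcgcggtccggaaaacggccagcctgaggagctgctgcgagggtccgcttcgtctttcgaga
STIP1: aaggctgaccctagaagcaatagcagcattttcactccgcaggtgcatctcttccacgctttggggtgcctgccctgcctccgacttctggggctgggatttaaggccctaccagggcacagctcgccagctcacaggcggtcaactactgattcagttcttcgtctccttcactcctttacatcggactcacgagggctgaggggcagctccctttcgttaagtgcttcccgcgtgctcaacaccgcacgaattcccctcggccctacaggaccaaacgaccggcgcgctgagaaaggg
DNAJA3: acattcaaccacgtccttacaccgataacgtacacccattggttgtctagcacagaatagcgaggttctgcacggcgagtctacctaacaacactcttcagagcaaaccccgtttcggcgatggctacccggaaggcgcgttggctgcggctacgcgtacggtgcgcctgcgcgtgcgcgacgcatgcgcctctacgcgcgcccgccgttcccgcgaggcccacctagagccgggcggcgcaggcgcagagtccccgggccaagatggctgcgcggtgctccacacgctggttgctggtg

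In the ZFAND2A window the match TTCGAGAA began at position -171 from the gene start, and in that of HSPA1B the match GAATATTC began at position -105. The windows of STIP1 and DNAJA3 held neither motif. Of the 50 kept member genes with a sequence in the table, 13 (26%) held at least 1 match, against 3738 of 27305 promoters of the same length (13.7%). HSPA8 had 4 matches, DNAJA1 and HSPA6 had 3 each, DNAJB6 had 2 and HSPB1 had 1. Many genes known to be raised by HSF1 under heat had 0 matches. Besides STIP1 these were BAG3, DNAJB1, DNAJB2, HSPH1, HSP90AA1, HSP90AB1, HSPD1, HSPE1 and HSPA4L. A match describes letters and not a bound site.

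ZFAND2A, whose product is a zinc finger protein induced by arsenite and heat that binds the proteasome, rose with sorafenib and with the combination and had the highest log2 change of the 72 probes in both. Its log2 intensities were 10.28, 10.41 and 10.31 with sorafenib, 10.52, 9.78 and 10.50 with the combination, 8.85, 8.78 and 8.39 with perifosine, and 9.24, 8.58 and 8.99 in control cells. All 6 arrays with sorafenib, alone or combined, were above all 6 arrays without it. The rise was 1.39 ± 0.234 log2 units (SE), or 2.63-fold, with sorafenib over control (limma, Benjamini-Hochberg adjusted p = 0.0225). With the combination it was 1.33 ± 0.234, or 2.51-fold (adjusted p = 0.0206). Perifosine alone gave -0.27 ± 0.234 (adjusted p = 1).

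The ZFAND2A calls depend on single arrays, and the size of the change depends on the background step. Both calls against control were also lost with median scaling and with no filter on dim probes. Without any 1 of the 3 sorafenib arrays or without control array B or C the adjusted p for sorafenib was between 0.0705 and 0.0924, and for the combination it was between 0.0559 and 0.0766 without combination array A or C or control array B or C. On the deposited normalized table the log2 change was 0.87 with sorafenib and 0.83 with the combination, still past the threshold (adjusted p = 0.00516 and 0.00466).

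ZFAND2A also differed between the arrays with sorafenib and those with perifosine alone. The combination was above perifosine by 1.59 ± 0.234 log2 units (adjusted p = 0.0115). Perifosine was below sorafenib by a log2 change of -1.66 ± 0.234 (adjusted p = 0.0101). Without perifosine array C or with median scaling both calls were lost, and the second also without sorafenib array C. The combination differed from sorafenib by -0.07 ± 0.234 (adjusted p = 1). Without combination array B this difference was positive, as the combination was 1.57 above control and sorafenib 1.39. ZFAND2A was the single member called for the combination against perifosine and for perifosine against sorafenib, where 1.47% and 0.722% of all kept probes passed.

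**Figure D1:**
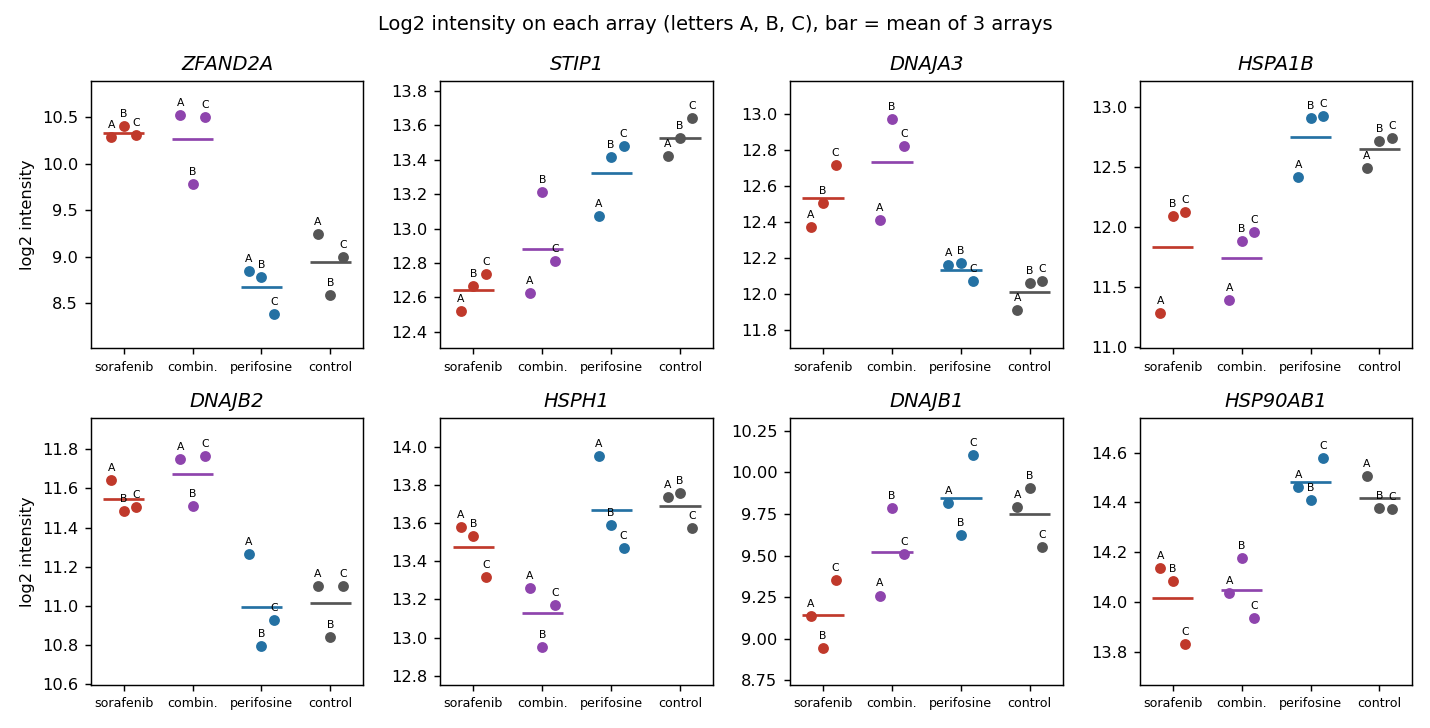
Log2 intensity (y axis, each panel on its own scale) of 8 member probes on every array of the 4 groups, with letters for the arrays and a bar at the mean of 3. ZFAND2A lies higher and STIP1, HSPA1B and HSP90AB1 lower on the arrays with sorafenib, alone or combined, than on the control arrays.

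STIP1, the adaptor that links HSP70 to HSP90 and is itself a target of HSF1, fell with sorafenib. It had log2 intensities of 12.52, 12.66 and 12.74 with sorafenib, 12.62, 13.21 and 12.81 with the combination, 13.07, 13.42 and 13.48 with perifosine, and 13.42, 13.53 and 13.64 in control cells. Every sorafenib and every combination array lay below every control array, while the perifosine arrays overlapped with the controls. STIP1 fell by 0.89 ± 0.179 log2 units, or 1.85-fold, with sorafenib (adjusted p = 0.0448). The combination gave -0.65 ± 0.179 and did not pass (adjusted p = 0.0837). Without combination array B that value was -0.81 ± 0.164 and passed (adjusted p = 0.0494). The sorafenib call was lost without any 1 of the sorafenib or control arrays, with adjusted p between 0.0806 and 0.177 and log2 changes from -0.94 to -0.83, and also without combination array C or perifosine array B or C.

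ZFAND2A and STIP1 were the 2 members past the threshold for sorafenib against control, or 2 of 72, where 0.949% of all kept probes passed. The labels do not state a pairing, but same-letter residuals of sorafenib, perifosine and control correlated, so the letters were taken as pairs there. With the letter as a block on these 9 arrays 5.35% of all probes and 3 members passed, the third being HSPA1B. This 9-array fit was chosen after seeing the data. With no block 12 members had an unadjusted p under 0.05, against 1815 of all 11904 probes. Median scaling left 0 members and 10 probes past the threshold.

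HSPA1B encodes the stress-inducible HSP70, and its probe may also bind the near-identical transcript of HSPA1A, so the gene behind the signal is uncertain. The log2 intensities were 11.28, 12.09 and 12.12 with sorafenib, 11.39, 11.88 and 11.96 with the combination, 12.42, 12.90 and 12.92 with perifosine, and 12.49, 12.72 and 12.74 in control cells. In every group array A was the lowest, and all 6 arrays with sorafenib lay below the other 6. For sorafenib against control the log2 change was -0.82 ± 0.249 (adjusted p = 0.143), and with the replicate block on the 9 arrays -0.82 ± 0.144 (adjusted p = 0.0311). Without sorafenib array A, the lowest, it was -0.54 with no block. The combination gave -0.91 ± 0.249 (adjusted p = 0.0814). Perifosine against sorafenib gave 0.92 ± 0.249 (adjusted p = 0.119), which passed with the block (adjusted p = 0.0274).

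The other HSP70 genes varied less. HSPA8, the constitutive HSP70, had 2 probes, at -0.41 ± 0.198 and -0.12 ± 0.166 with sorafenib and at -0.18 ± 0.198 and -0.35 ± 0.166 with the combination, none past the threshold. The combination value of the first probe was -0.35 ± 0.190 without array B. HSPA14, which works with a J-domain protein on the ribosome, had log2 changes of -0.40 ± 0.156 with sorafenib and -0.46 ± 0.156 with the combination (adjusted p = 0.238 and 0.137). HSPA6, which is nearly silent in unstressed human cells, was detected on 1 of 3 control arrays and had 0.32 ± 0.261 with sorafenib (adjusted p = 0.622) and 0.15 ± 0.261 with the combination (adjusted p = 0.807).

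HSPH1, the HSP110 that exchanges the nucleotide of HSP70, was at 13.58, 13.53 and 13.31 log2 units with sorafenib, at 13.26, 12.95 and 13.17 with the combination, at 13.95, 13.59 and 13.47 with perifosine, and at 13.74, 13.76 and 13.57 in control cells. The combination arrays were below all the others, and the sorafenib arrays overlapped with the controls. The change with the combination was -0.56 ± 0.165 (adjusted p = 0.0979), and with sorafenib it was -0.22 ± 0.165 (adjusted p = 0.589). The difference between the combination and sorafenib was -0.35 ± 0.165 (adjusted p = 1).

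All 4 probes of the HSP90 genes had values below control with both sorafenib treatments, but none passed. HSP90AB1, the constitutive HSP90 gene, was at 14.14, 14.08 and 13.83 log2 units with sorafenib, 14.04, 14.18 and 13.94 with the combination, 14.46, 14.41 and 14.58 with perifosine, and 14.51, 14.38 and 14.37 in control cells. The arrays with sorafenib were again all below those without it. The log2 change was -0.40 ± 0.141 with sorafenib (adjusted p = 0.189) and -0.37 ± 0.141 with the combination (adjusted p = 0.183). The 3 probes of HSP90AA1, the inducible HSP90 gene, ranged from -0.40 to -0.16 with sorafenib and from -0.47 to -0.14 with the combination. The median of the 4 probes was -0.31 with sorafenib, -0.26 with the combination and -0.02 with perifosine, and all 4 stayed below control with sorafenib and with the combination under median scaling, without background correction and on the deposited normalized table.

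HSPB1, the small heat shock protein that binds unfolding proteins without ATP, gave 0.32 ± 0.358 with sorafenib, -0.03 ± 0.358 with the combination and 0.07 ± 0.358 with perifosine (adjusted p = 0.739, 0.979 and 1). Without combination array B the combination value was 0.51 ± 0.183 and did not pass (adjusted p = 0.182). The interval for sorafenib ran from -0.46 to 1.10. HSPBAP1, which encodes a protein that binds HSPB1, had the second largest positive value with sorafenib, 0.74 ± 0.281 (adjusted p = 0.226). HSF1 itself was at 8.00, 8.13 and 8.08 log2 units with sorafenib, 7.40, 7.47 and 7.48 with the combination, 7.91, 7.84 and 7.47 with perifosine, and 8.62, 7.52 and 7.95 in control cells. The 3 combination arrays lay below all control arrays, and no change passed (0.04 ± 0.238 with sorafenib and -0.58 ± 0.238 with the combination, adjusted p = 0.958 and 0.214). Control array A was the highest of all 12, and without it the combination value was -0.28. BAG3, a nucleotide exchange factor of HSP70 in selective autophagy, differed from control by -0.11 ± 0.145, -0.06 ± 0.145 and -0.02 ± 0.145 with sorafenib, the combination and perifosine, and the combination value was -0.16 ± 0.141 without array B.

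The J-domain proteins, which stimulate the ATPase of HSP70, lay on both sides of control. With sorafenib 13 of 31 probes were below control, with a median log2 change of 0.04. With the combination it was also 13 of 31, with a median of 0.03 that turned to -0.01 under median scaling. Without combination array B more of the 31 were below control than above it, and the median probe, that of DNAJC4, was at -0.003. DNAJB1, the heat-inducible partner of HSP70, was at 9.14, 8.95 and 9.35 log2 units with sorafenib, 9.26, 9.79 and 9.51 with the combination, 9.82, 9.62 and 10.11 with perifosine, and 9.79, 9.90 and 9.55 in control cells. Its sorafenib arrays lay below all control arrays, at -0.60 ± 0.192 (adjusted p = 0.156), and the combination arrays overlapped with the controls, at -0.23 ± 0.192 (adjusted p = 0.566), or -0.37 ± 0.195 without array B.

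DNAJB2, a J-domain protein with ubiquitin-binding motifs, had values above control. It was at 11.64, 11.49 and 11.51 log2 units with sorafenib, 11.75, 11.51 and 11.77 with the combination, 11.26, 10.79 and 10.93 with perifosine, and 11.10, 10.84 and 11.10 in control cells. The 6 arrays with sorafenib were above the other 6, with 0.53 ± 0.161 for sorafenib and 0.66 ± 0.161 for the combination (adjusted p = 0.143 and 0.0573). DNAJB5 was above background on no control array, so it passed the filter only through treated arrays, which favours a value above control. With the combination, where 2 of 3 arrays detected it, its level was at least 1.37-fold higher (adjusted p = 0.102), and it was at least 1.13-fold higher with perifosine (adjusted p = 1). DNAJC15, a protein of the mitochondrial import motor, had 0.57 ± 0.215 with sorafenib and 0.55 ± 0.215 with the combination (adjusted p = 0.219 and 0.192). DNAJC12 had 4 probes, 1 of them above background on no control array. The other 3 ranged from 0.01 to 0.56 with sorafenib, from 0.17 to 0.57 with the combination and from 0.00 to 0.52 with perifosine. Without combination array B the second range was 0.17 to 0.51, with the lowest value from another probe. DNAJA1 gave -0.21 ± 0.154 and DNAJA2 gave 0.09 ± 0.187 with sorafenib, and the probes of DNAJB6 gave -0.04 ± 0.194 and 0.13 ± 0.165.

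Of the mitochondrial members, DNAJA3 rose with the combination. This J-domain partner of mitochondrial HSP70 was at 12.37, 12.51 and 12.72 log2 units with sorafenib, 12.41, 12.97 and 12.82 with the combination, 12.16, 12.17 and 12.07 with perifosine, and 11.91, 12.06 and 12.07 in control cells. The sorafenib and combination arrays were all above all the arrays without sorafenib. The rise with the combination was 0.72 ± 0.168, or 1.65-fold (adjusted p = 0.0484), and sorafenib gave 0.52 ± 0.168 (adjusted p = 0.161). The call held without combination array A and was lost without any 1 of the other 11 arrays (adjusted p from 0.057 to 0.134), and without combination array B it was 0.1 at a log2 change of 0.60.

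HSPA9, the mitochondrial HSP70, had 0.49 ± 0.225 with sorafenib and 0.50 ± 0.225 with the combination (adjusted p = 0.33 and 0.255), and without control array A 0.26 and 0.27. The chaperonin of the mitochondrial matrix lay on the other side of control. HSPE1, its lid, had a bright probe at 12.94, 13.40 and 13.14 log2 units with sorafenib, 13.06, 12.22 and 13.23 with the combination, 13.14, 13.60 and 13.80 with perifosine, and 13.45, 13.65 and 13.69 in control cells. Array B was the lowest of the combination. This probe gave -0.44 ± 0.262 with sorafenib and -0.77 ± 0.262 with the combination (adjusted p = 0.465 and 0.142), and the combination value was -0.46 ± 0.212 without array B. A dimmer probe of HSPE1 gave -0.88 ± 0.477 and -1.80 ± 0.477 (adjusted p = 0.412 and 0.0726), and the second became -1.20 ± 0.366 without array B, where it was at 6.12. The 3 probes of HSPD1, the ring of that chaperonin, ranged from -0.35 to -0.24 with sorafenib and from -0.30 to -0.11 with the combination. The combination values ranged from -0.61 to -0.24 without array B.

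DNAJA3 and ZFAND2A were the 2 members past the threshold for the combination against control, of 72, where 2.34% of all kept probes passed. There 19 members and 2275 of all probes had an unadjusted p under 0.05. Without background correction and on the authors' deposited normalized values 7 members passed (of all probes 5.46% and 5.44%). DNAJA3, ZFAND2A and DNAJB2 were higher, and HSPA1B, HSPH1, STIP1 and the dim HSPE1 probe were lower. The bright HSPE1 probe did not pass. With median scaling 0 passed (0.0672% of all probes).

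**Figure D2:**
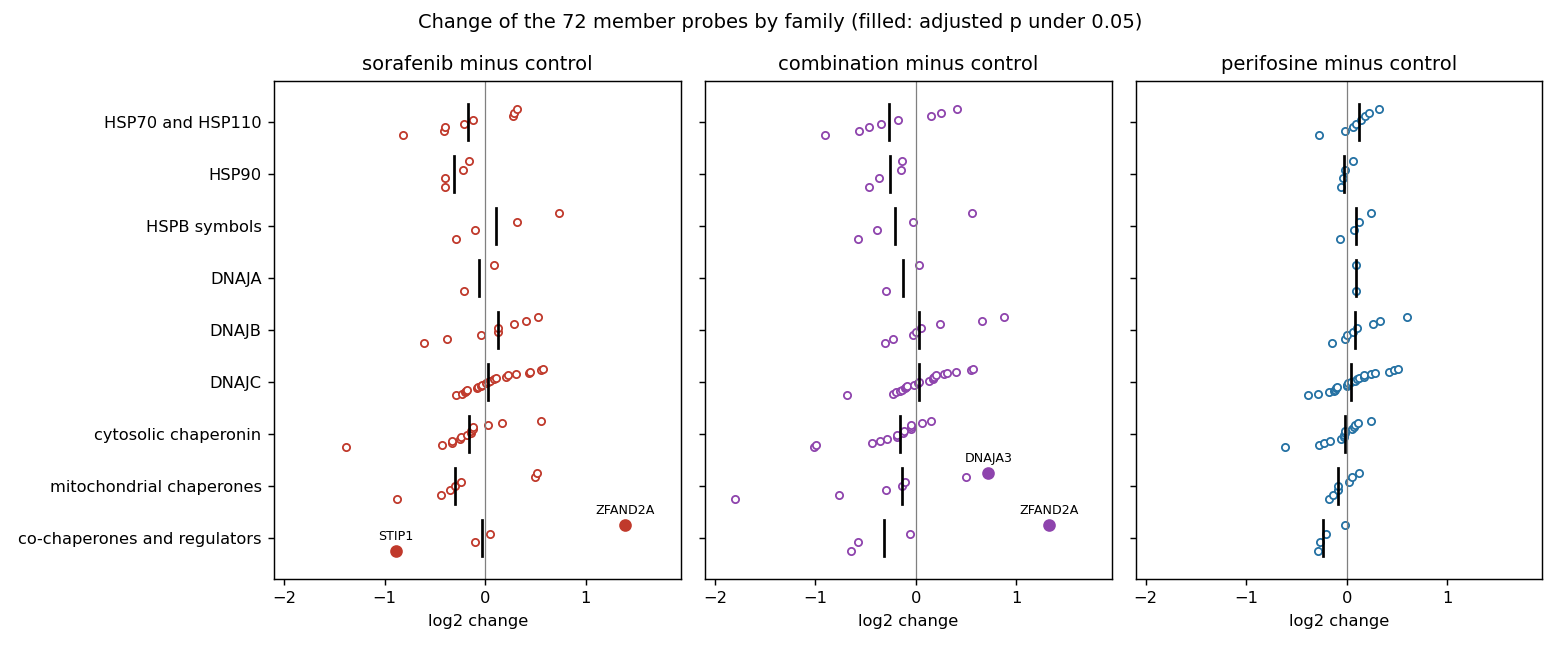
Log2 change over control (x axis) of the 72 member probes by family (y axis), in 3 panels for sorafenib, the combination and perifosine, with filled points at an adjusted p under 0.05 and a bar at the family median. The 4 HSP90 probes lie below 0 with sorafenib and with the combination, the J-domain probes lie on both sides, and 0 of 72 points are filled with perifosine.

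No probe of the cytosolic chaperonin genes passed the threshold, and most lay below control. With sorafenib 11 of 14 probes were below control, with a median log2 change of -0.16, and with the combination 12 of 14, also with a median of -0.16 (12 and 13 under median scaling). Without combination array B the combination had 13 of 14 below and a median of -0.29. CCT3 had a bright probe at -0.34 ± 0.189 with sorafenib and -0.28 ± 0.189 with the combination (-0.47 ± 0.166 without array B), and a dim one at -1.38 ± 0.436 and -1.01 ± 0.436 (adjusted p = 0.154 and 0.235). The dim probe was at 6.22, 7.92 and 8.12 log2 units with sorafenib, 7.60, 7.75 and 8.03 with the combination, 8.09, 8.46 and 8.00 with perifosine, and 9.41, 8.72 and 8.29 in control cells. Sorafenib array A held the lowest value of the dim probe, whose change with sorafenib was -0.78 without that array, and neither CCT3 probe passed.

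TCP1, the founding subunit, had a probe at 7.00, 7.87 and 7.51 log2 units with sorafenib, 6.51, 7.10 and 7.08 with the combination, 7.63, 7.81 and 7.40 with perifosine, and 7.78, 8.22 and 7.66 in control cells. The combination arrays were below all control arrays. It was detected on 1 of 3 combination arrays and on all control arrays, and gave -0.43 ± 0.253 with sorafenib (-0.20 without sorafenib array A) and -0.99 ± 0.253 with the combination (adjusted p = 0.458 and 0.0663). The other TCP1 probe, detected on no combination array and on 1 control array, was at least 1.06-fold lower with the combination (adjusted p = 0.594). CCT2, CCT4 and CCT8 lay between -0.14 and 0.16 log2 units of control with both treatments (-0.17 to -0.02 with the combination without array B), the 3 probes of CCT7 ranged from -0.33 to -0.24 with sorafenib, and the 2 of CCT6A from -0.18 to -0.14. CCT6B, a subunit typical of testis, was above background on 2 sorafenib arrays, 1 combination array and no perifosine or control array, so it passed the filter mainly through sorafenib. Its level with sorafenib was at least 1.09-fold higher (limma, adjusted p = 0.325). The pseudogene CCT6P1 gave 0.17 ± 0.183 with sorafenib and -0.44 ± 0.183 with the combination (adjusted p = 0.73 and 0.221).

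**Figure D3:**
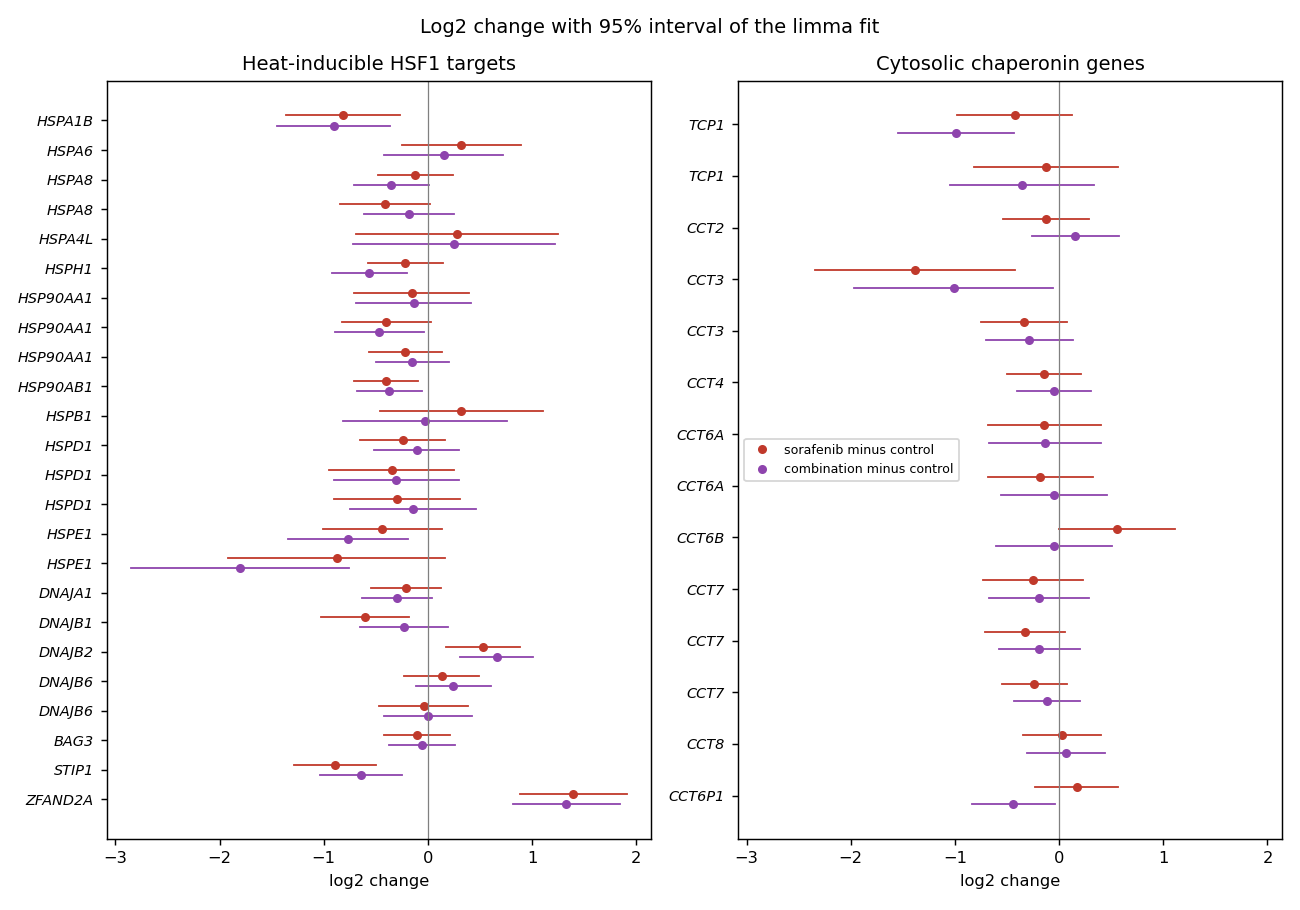
Log2 change over control (x axis) with its 95% interval for the 24 probes of heat-inducible HSF1 targets and the 14 probes of the cytosolic chaperonin, with sorafenib and with the combination. With both treatments the ZFAND2A and DNAJB2 intervals lie above 0 and those of STIP1, HSPA1B and HSP90AB1 below 0. Most chaperonin intervals include 0.

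Genes known to be raised by HSF1 under heat lay on both sides of control. Of the 24 probes of 17 such members, 18 were below control with sorafenib, with a median log2 change of -0.22, of which STIP1 passed, and 6 were above, of which ZFAND2A passed. With the combination 18 were below, with a median of -0.17 (-0.32 without array B), of which 0 passed, and 6 were above, of which ZFAND2A passed. Median scaling gave 18 and 19 below. With perifosine 11 of 24 were below, with a median of 0.04.

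Over all members more probes lay below control than above it with sorafenib, alone or combined. With sorafenib 42 of 72 probes (58.3%) were below control and the median log2 change was -0.105, against 50.1% and a median of -0.00124 for all kept probes. With the combination 45 of 72 (62.5%) were below with a median of -0.103, against 50.6% and a median of -0.00523. By array, the median of the members against the control mean was -0.20, -0.01 and -0.04 for sorafenib arrays A, B and C and -0.14, 0.04 and -0.17 for combination arrays A, B and C, so the arrays of a group differed. Without sorafenib array A 38 of 72 were below with sorafenib, with a median of -0.05. Without combination array B 48 of 72 were below with the combination, with a median of -0.15.

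Counting arrays that did not overlap with the controls, 6 member probes were higher and 13 lower with sorafenib, or 8.33% and 18.1%, where 11.9% and 11.5% of all probes did so. With the combination 6 were higher and 14 lower, or 8.33% and 19.4%, against 12.2% and 10.4% of all probes. With perifosine 2 were higher, DNAJA3 and DNAJC16, and 0 lower, against 3.98% and 3.46%. DNAJC16 passed the filter only through treated arrays, which favours a place above control. The same holds for CCT6B and DNAJB5, counted as higher with sorafenib and with the combination, respectively. The 13 lower with sorafenib included HSPA1B, HSPA8, HSPA14, HSP90AA1, HSP90AB1, DNAJB1, DNAJC8, STIP1 and CCT7, and both probes of CCT3 and of HSPE1. The other probes of HSPA8, HSP90AA1 and CCT7 overlapped with the controls. The 6 higher with sorafenib were ZFAND2A, HSPBAP1, CCT6B, DNAJB2, DNAJA3 and a probe of DNAJC12, whose other probes overlapped.

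**Figure D4:**
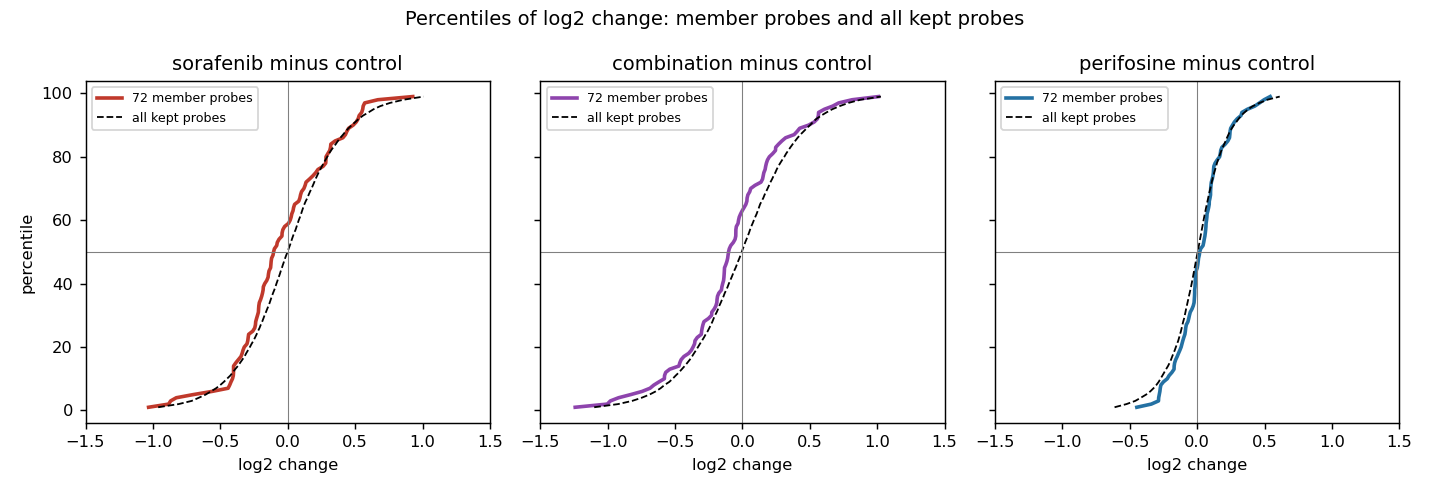
Percentile (y axis) against log2 change over control (x axis) for the 72 member probes (solid) and all 11904 kept probes (dashed). The member curve lies left of the dashed curve at its middle with sorafenib and the combination (medians of -0.105 and -0.103) and close to it with perifosine (0.02).

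Perifosine alone changed no member by the test. The count was 0 of 72 members and 0% of all probes, also with the replicate block, and 1 member (DNAJB5) and 294 of all probes had an unadjusted p under 0.05. The members had a median log2 change of 0.02 and a range from -0.62 to 0.60. The lowest values were those of the dim CCT3 probe (-0.62 ± 0.436), DNAJC18 (-0.38 ± 0.243), DNAJC5, a J-domain protein of secretory vesicles (-0.29 ± 0.165), HSF1 (-0.29 ± 0.238) and HSPA14 (-0.28 ± 0.156). Among the 5 highest were 2 DNAJC12 probes (0.52 ± 0.262 and 0.47 ± 0.273) and DNAJB14 (0.33 ± 0.371). The others were DNAJB5 and DNAJC16, which were above background on 1 perifosine array and on no control array. Both passed the filter only through treated arrays, which favours values above control. DNAJC16 was at least 1.03-fold higher with perifosine (adjusted p = 1). Without perifosine array A the larger DNAJC12 value was 0.17, and without control array A that of CCT3 was -0.32.

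Between the drugs, with the block on the 9 arrays 4.71% of all probes and 4 members passed for perifosine against sorafenib. These were ZFAND2A, HSPA1B, STIP1 and 1 probe of HSPA8. STIP1 was at 0.68 ± 0.109 and HSPA8 at 0.56 ± 0.119 in that fit (adjusted p = 0.0282 and 0.0495). With the block on all 12 arrays the adjusted p was 0.0424 for STIP1 and 0.182 for this HSPA8 probe. Adding perifosine to sorafenib changed 0 members and 0% of all probes by the test, with 4 members (HSF1, CCT6P1, CCT6B and TCP1, all with negative values) and 249 probes at an unadjusted p under 0.05. CCT6B passed the filter mainly through sorafenib arrays, which favours a negative value here. The interaction of the drugs, the combined change minus the sum of the single changes, was also past the threshold in 0 members and 0% of all probes, with 0 members and 225 probes at an unadjusted p under 0.05. For ZFAND2A it was 0.20 ± 0.331 and for STIP1 0.45 ± 0.254. Without combination array B the combined change over control was 1.57 for ZFAND2A and -0.81 for STIP1. The interaction was therefore larger for ZFAND2A and smaller for STIP1 without that array. The comparisons share arrays and are not independent of each other.

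Other genes of the pathway that are no members were counted in the same way. Of 35 probes of 25 co-chaperone and prefoldin genes, 24 were below control with sorafenib (median -0.13) and 27 with the combination (median -0.17), and 0 passed. All 17 probes of 10 tubulin and actin genes, which are clients of the cytosolic chaperonin, were below control with sorafenib (median -0.22), 15 of 17 under median scaling and 14 of 17 without sorafenib array A, and 0 passed. With the block on the 9 arrays, where 5.35% of all probes passed, 4 of the 17 did so for sorafenib. TUBB4B, a beta tubulin, had -0.94 ± 0.132 in that fit (adjusted p = 0.0209, and 0.17 with no block), and the 3 probes of TUBG1, gamma tubulin of the centrosome, ranged from -0.80 to -0.57 (adjusted p from 0.0401 to 0.0467). Of the co-chaperones, FKBP4, an immunophilin that binds HSP90, had -0.78 ± 0.127 (adjusted p = 0.0282, and 0.0777 with no block). PFDN6, a subunit of prefoldin, had -0.61 ± 0.129 (adjusted p = 0.0467, and 0.653 with no block). With the block on all 12 arrays the adjusted p was 0.051 for FKBP4 and 0.628 for PFDN6, so neither passed with the combination arrays kept. It was 0.0253 for TUBB4B and from 0.0486 to 0.0693 for TUBG1. With the combination 14 of the 17 were below (median -0.09), or all 17 under median scaling and without combination array B (medians of -0.28 and -0.24). The 8 probes of mitochondrial partners had 4 below with sorafenib and 5 with the combination, and 0 passed.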

How the data were processed

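RNA of 12 L-540 samples was hybridised to Illumina BeadChips. Per the file headers, 1 deposited table gives the unnormalized mean intensity of each probe, with its detection p-value in the next column. The authors' normalized intensity table has nearly identical column distributions (largest relative difference 0.00827), but no source used here names its method. The submitters' processing notes list BeadStudio without a version.

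Background correction, quantile normalization and log2 used neqc (limma 3.58.1, R 4.3.3, offset 16), with negative-control moments estimated from detection p. The filter kept 11904 of 48803 probes, those under a detection p of 0.01 on 3 or more arrays. By the platform annotation 28098 probes carry 1 symbol, 13 carry several and 20692 are unnamed here. All 12 arrays entered 1 limma fit with a mean per group. Benjamini-Hochberg adjustment ran over all kept probes within each of 7 comparisons, with a threshold of 0.05. The fit was tested on simulated data. With 3 arrays a group, their number limits precision. SE is that of the moderated fit. "At least" folds use, per array of the group without detection, the higher of the dim probe's value and the lowest detected signal. The other group keeps its plain mean, undetected arrays included. These folds compare group means and take no account of the spread between arrays.

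The members and lists were chosen with earlier results of these data known. The probes named are those past the threshold, the 5 highest and 5 lowest of each comparison with control, and a list of core chaperones. Residuals of same-letter arrays correlated by 0.26 to 0.32 in perifosine and control, 0.20 to 0.33 in sorafenib and control and 0.22 to 0.37 in sorafenib and perifosine, so the letters were taken as pairs there. Pairs with the combination went down to -0.18 and were not, so the block values in the text come from a fit of the other 9 arrays, which was chosen after seeing the data.

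Alternatives were median scaling, no background correction, the deposited normalized table, no filter, detection on all 12 arrays, 1 probe per gene, array weights, the replicate block and leaving out each array.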

Additional observations from a re-analysis of the deposited data

How the results depend on the processing

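The number of member probes past the threshold depended on the processing, and no named value with a call changed sign. For sorafenib against control it was 2, and it was 0 with median scaling and with no filter on dim probes (0.084% and 0.0758% of all probes passed), and 3 with the replicate block (3.09%, and 5.35% on the 9 paired arrays). Leaving out 1 array gave 0 to 2. For the combination against control it was 2, and it was 0 with median scaling (0.0672%) and with no filter (0.111%), 7 with no background correction (5.46%), 7 with the deposited normalized table (5.44%), 5 with probes detected on all 12 arrays (5.85%), 3 with 1 probe per gene (3.41%), 4 with array weights (3.39%) and 7 with the replicate block (5.88%). Leaving out 1 array gave 0 to 3. The block added DNAJB2, HSPA1B, HSPH1, STIP1 and TCP1 there, but the letters were not taken as pairs with the combination arrays.

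For the combination against perifosine the count was 1, and it was 0 with median scaling (0.0336%), 7 with no background correction (4.1%) and with the deposited normalized table (4.12%), 3 with probes detected on all 12 arrays (4.73%), 2 with 1 probe per gene (2.39%), 3 with array weights (2.96%) and 3 with the replicate block (4.34%), and 0 to 2 without 1 array. For perifosine against sorafenib it was 1, and it was 0 with median scaling (0.0504%), 4 with no background correction (2.03%), with the deposited normalized table (2.06%) and with array weights (3.03%), 3 with the replicate block (2.87%), 4 with the replicate block on the 9 paired arrays (4.71%), and 0 to 1 without 1 array. For perifosine against control, the combination against sorafenib and the interaction it was 0 in all alternatives run.

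Over all kept probes, 113 passed for sorafenib against control, 60.2% of them higher, and median scaling left 10, 80% of them higher. It left 8 for the combination, against 279. The slide could not be used as a block because the headers name none. Dim probes such as those of HSPE1, CCT3 and TCP1 have values near background, where the background step sets much of the log2 change: for the dim HSPE1 probe with the combination it was -1.80, and -0.72 without background correction.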
